A study of Triticum aestivum with 4 samples.

Results

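Entries of the miR164, miR165, miR166 and miR394 families were examined in small RNA libraries of winter wheat crowns. They were taken from the deposited expression table by name, as every entry that starts with miR164, miR165, miR166 or miR394 followed by a letter or a hyphen. The rule found 8 of the 348 listed miRNAs, namely 2 of miR164, 2 of miR165 and 4 of miR394, and 0 entries named miR166. The crown is the base of the shoot, where the apical meristem sits, and the plants were of the semi-winter cultivar Shimai 22, grown in the field. The 4 groups were three-leaf crowns, crowns in winter dormancy (dormant), crowns of the spring green-up and crowns of jointing plants. The labels name no treatment, and the paper states that the plants grew under natural weather. At each stage, RNA of 3 biological replicates was pooled into 1 library, so no difference can be set against the spread between plants and no p-value can be given. A crown also holds stem, leaf base and root base tissue, so these data cannot separate a miRNA's level in the meristem from the amount of meristem in the sample.

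These families act where new organs form. In Arabidopsis, miR164 cleaves transcripts of NAC factors of the CUP-SHAPED COTYLEDON group, which hold back growth at the boundary between the meristem and a new organ. miR165 and miR166 cleave transcripts of class III HD-ZIP factors, which set the upper side of a leaf and keep the meristem active. miR394 acts on the F-box gene LEAF CURLING RESPONSIVENESS and is known in Arabidopsis as a signal from the outer cell layer that keeps the stem cells below it competent. The targets were not measured in the table, and genome positions were not analysed here.

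The sequences of the 8 entries are shown because several results below turn on which of them belong together. They are written 5′ to 3′ as RNA, as the deposited table gives them, with bases 2 to 8, the seed, in capitals.
miR164a: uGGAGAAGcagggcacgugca
miR164b-3p: cAUGUGCCuuucuucuccacc
miR165a-3p: uCGCACCAggcaucacucccc
miR165a-5p: cCGAAUUGuagucuggagaggcg
miR394a: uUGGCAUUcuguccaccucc
miR394-3p: aGGUGGGCauacugccaaugg
miR394b-3p: aGGUGGGGaugacgucaagu
miR394a-3p: aGCUCUGUuggcuucucuuug
No seed was shared, either among the 8 or with any other listed miRNA. The entries were 20 nt (miR394a and miR394b-3p), 21 nt or, for miR165a-5p, 23 nt long. miR164a, miR165a-3p and miR394a begin with U, as did 43.7% of all listed sequences.

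Mature miRNAs are cut from a hairpin, so the 5p and 3p arms of 1 hairpin should be largely complementary, with short overhangs at their 3′ ends. Each entry was slid along the entry named or taken as the other arm of its family without gaps, and the register with the most Watson-Crick and G:U pairs was kept. miR164a and miR164b-3p formed 18 pairs over 19 facing bases, with 2 bases left over at each 3′ end. miR394a and miR394-3p formed 16 pairs over 18 facing bases. In the 4 sequences below, paired bases are in capitals.
miR164a: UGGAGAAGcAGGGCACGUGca
miR164b-3p: CAUGUGCCUUuCUUCUCCAcc
miR394a: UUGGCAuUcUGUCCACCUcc
miR394-3p: AGGUGGGCAuAcUGCCAAugg
None of the 346 other listed sequences paired with miR164a or with miR394a as well as these did. By sequence, these entries can pair as arms do, which does not show that they come from 1 hairpin.

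The other entries named as arms paired less well. miR165a-5p and miR165a-3p formed 13 pairs over 21 facing bases, and 85 of the 346 other sequences paired with miR165a-5p as well or better. miR394a-3p formed 10 pairs with miR394a, the same as the median of other sequences, and 215 of 346 did as well or better. miR394b-3p stood between, with 15 pairs to miR394a, 3 of them G:U, matched or exceeded by 2 other sequences. These were miR394-3p, with 16 pairs, and 1 sequence outside the family, with 15. The first 7 bases of miR394b-3p equal those of miR394-3p. At the same positions, 13 of its 20 bases are identical to miR394-3p, shown in capitals.
miR394b-3p: AGGUGGGgAUgacGuCAAgu
These counts describe the listed letters and do not show which hairpin an entry came from.

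**Figure D1:**
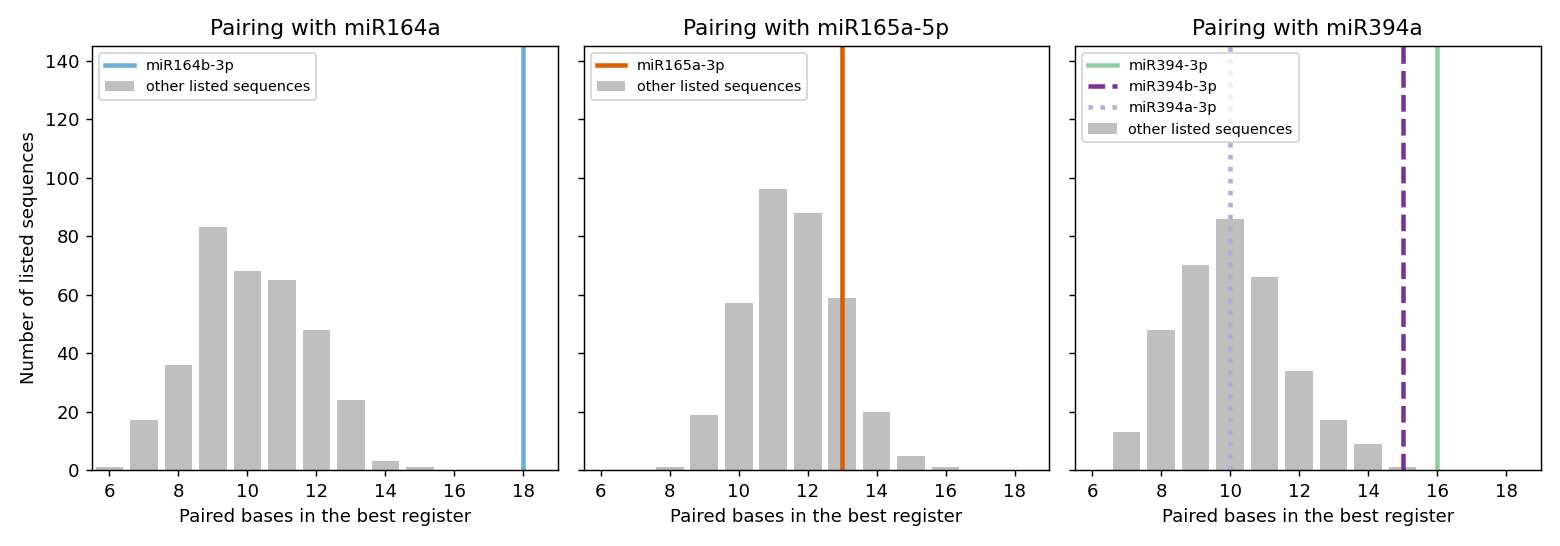
Number of listed sequences (y axis) by the bases they pair in their best ungapped register (x axis) with miR164a, miR165a-5p and miR394a. Grey bars are sequences outside the family and coloured lines are the entries named as other arms. miR164b-3p at 18 and miR394-3p at 16 lie beyond all grey bars, whereas miR165a-3p at 13 and miR394a-3p at 10 lie inside them.

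Expression is given as deposited, in reads per 1000000 that mapped (RPM). The depth was recovered from the values with 2 decimals. Totals from 20533575 to 21888425 mapped reads per library made 100% of them whole reads, which sets 1 read at 0.0457 to 0.0487 RPM. An interval in parentheses after an RPM value is a 95% Wilson interval. It covers the error of counting and nothing else, since PCR copies of 1 molecule cannot be recognised here. Values summed over all 348 entries, miR165a-3p included, were 142826, 135687, 107282 and 68949.9 RPM in the order of the stages, so miRNAs as a whole took a smaller part of the reads at later stages.

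miR165a-3p could not be read as a separate measurement. In three-leaf crowns its value was 2739.1 RPM, and miR164a and miR164b-3p summed to 2739.1 RPM. The same held in dormant crowns (2394.1 RPM on either side), green-up crowns (1465.5 RPM) and jointing crowns (644.1 RPM), with a difference of 0 RPM in every library. All 19900 pairs of the 200 entries above 0 in every library were summed and compared with every entry. This was the 1 trio that added up within 0.15 RPM in all 4 libraries. In sequence the entries are unlike. miR165a-3p matched miR164a at 8 bases in its best register, a number that 218 of 346 other sequences reached. What miR165a-3p holds cannot be told from the table, and its values below repeat that sum. Apart from it, miR165a-5p was the single entry with a miR165 or miR166 name. Its 13 pairs with miR165a-3p were reached by 85 of 346 other sequences, so pairing does not mark it as the other arm. Whether miR165a-5p belongs to the family was not tested, and its levels below are those of an entry so named.

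**Figure D2:**
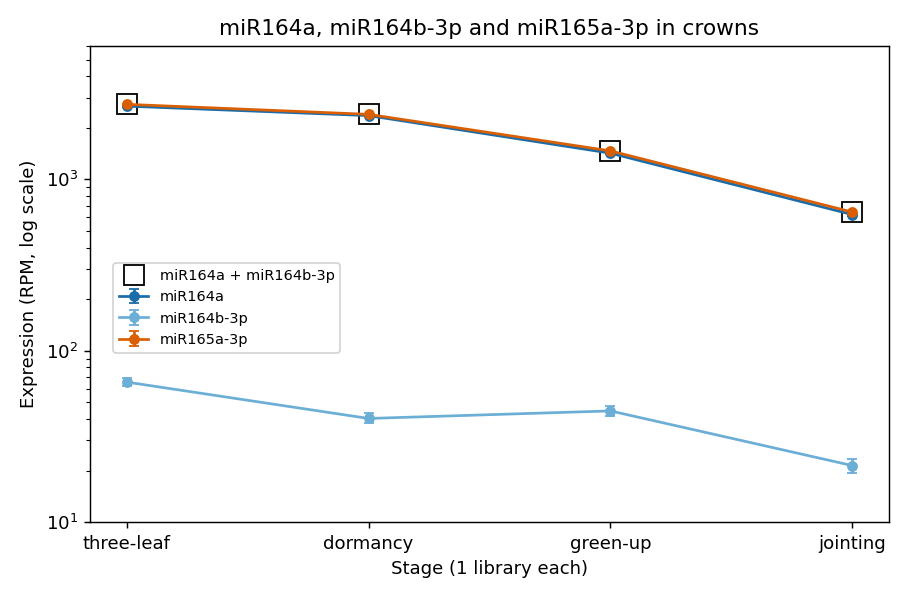
Expression in RPM on a log axis by stage, 1 library each, with 95% Wilson intervals, for miR164a, miR164b-3p and miR165a-3p. Open squares are the sum of miR164a and miR164b-3p, and they lie on the miR165a-3p points at all 4 stages.

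miR164a was the most abundant entry after miR165a-3p and was lower at each later stage. Its level was 2673.4 RPM in three-leaf crowns, 2353.8 RPM in dormant crowns, 1420.9 RPM in green-up crowns and 622.7 RPM in jointing crowns, from about 57945 to 12953 reads. The intervals do not overlap, as in 2333 to 2375 RPM at dormancy against 1405 to 1437 RPM at green-up. Jointing crowns were thus 4.29-fold below three-leaf crowns, and most of this difference arose after dormancy. Its rank among the 348 entries hardly moved, from 14 to 16, 13 and 18. Of the 183 entries above 0 in every library and above 5 RPM in at least 1, 42 (23.0%) were, like miR164a, lower at every later stage.

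miR164b-3p, the complementary entry, was far below miR164a at every stage and did not have the same course. Three-leaf crowns had 65.7 RPM (62.4 to 69.2), dormant crowns 40.3 RPM (37.7 to 43.2), green-up crowns 44.6 RPM (41.9 to 47.5) and jointing crowns 21.4 RPM (19.5 to 23.5). The difference between the first libraries was larger for miR164b-3p than for miR164a, a log2 change of -0.71 (exact binomial 95% interval -0.83 to -0.58) against -0.18 (-0.20 to -0.17). Between dormancy and green-up its intervals overlap, with a log2 change of 0.15 (0.01 to 0.28), whereas miR164a was lower by 0.73 on the same scale.

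The ratio of these entries therefore differed between libraries. miR164a exceeded miR164b-3p 40.7-fold in three-leaf, 58.4-fold in dormant, 31.9-fold in green-up and 29.1-fold in jointing crowns. As a share of their summed reads, miR164b-3p held 2.40% (95% Wilson interval 2.28 to 2.52%), 1.68% (1.57 to 1.80%), 3.04% (2.86 to 3.24%) and 3.32% (3.03 to 3.64%). Dormancy had the smallest share of miR164b-3p, and the shares at green-up and jointing overlap. This ratio does not depend on how the libraries are scaled, but without replicates its spread within a stage is unknown.

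miR165a-5p was present at 3 stages. Three-leaf crowns had 102.3 RPM (98.1 to 106.6), green-up crowns 45.1 RPM (42.4 to 48.0) and jointing crowns 4 RPM (3.22 to 4.95), and dormant crowns are listed at 0. The value at jointing rests on about 83 reads. Between the three-leaf stage and jointing it was 25.6-fold lower in RPM, and 12.3-fold lower when libraries were scaled to the listed miRNAs or by the median ratio, the alternatives described with the pairs of stages. The gap at dormancy breaks the order of the stages. Taking a 0 as at most 3 reads, that is 0.146 RPM at this depth, miR165a-5p was at least 700.2-fold lower at dormancy than at the three-leaf stage and at least 309-fold lower than at green-up. These bounds depend on what a 0 stands for. The lowest nonzero entries of the libraries were about 13, 6, 5 and 4 reads, and with the 0 at that lowest value the folds were 341 and 150. Of the 348 entries, 5 were listed at 0 at dormancy alone with more than 5 RPM at the three-leaf stage and green-up.

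miR394a had the opposite course to miR164a over the later stages and the widest range of the 4 entries of these families detected in all libraries. Three-leaf crowns had 43.1 RPM (40.4 to 45.9), dormant crowns 7.9 RPM (6.76 to 9.20), green-up crowns 79.5 RPM (75.8 to 83.3) and jointing crowns 201 RPM (195 to 207). No intervals overlap. Dormancy was 5.46-fold below the three-leaf stage, and from there miR394a was 10.1-fold higher at green-up and 25.4-fold higher at jointing. Under the scalings the latter was 50.1-fold and 51.4-fold. Its rank moved from 119 to 206, 81 and 35 of the 348 entries. Of the 183 entries above 0 in every library and above 5 RPM in at least 1, 10 (5.46%) had, like miR394a, their lowest value at dormancy and their highest at jointing.

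The other miR394 entries were detected in 1 or 2 libraries. miR394-3p, the entry complementary to miR394a, had 2.7 RPM in three-leaf crowns (about 59 reads) and 2.6 RPM in green-up crowns (about 57 reads), and 0 in the dormant and jointing libraries. It was 16.0-fold and 30.6-fold below miR394a at the stages where it was found. At jointing, where miR394a was highest, miR394-3p was listed at 0. miR394a-3p was listed at 1.1 RPM at jointing, about 23 reads, and at 0 elsewhere.

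miR394b-3p was listed at dormancy alone, at 41 RPM (38.3 to 43.9) from about 842 reads. Against 3 reads in place of a 0, it was at least 284-fold lower in each other library. With a 0 at the lowest value listed in each library, it was 68.3-fold lower in three-leaf, 178-fold in green-up and 205-fold in jointing crowns. It was 1 of 5 entries above 5 RPM at dormancy and at 0 in the other libraries. The sum over the miR394 name depended on it. That sum was 45.8 RPM in three-leaf and 48.9 RPM in dormant crowns, while miR394a itself was lower. At dormancy miR394a held 16.2% of the family sum (95% Wilson interval 14.0 to 18.5%), against 94.1%, 96.8% and 99.5% in three-leaf, green-up and jointing crowns.

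**Figure D3:**
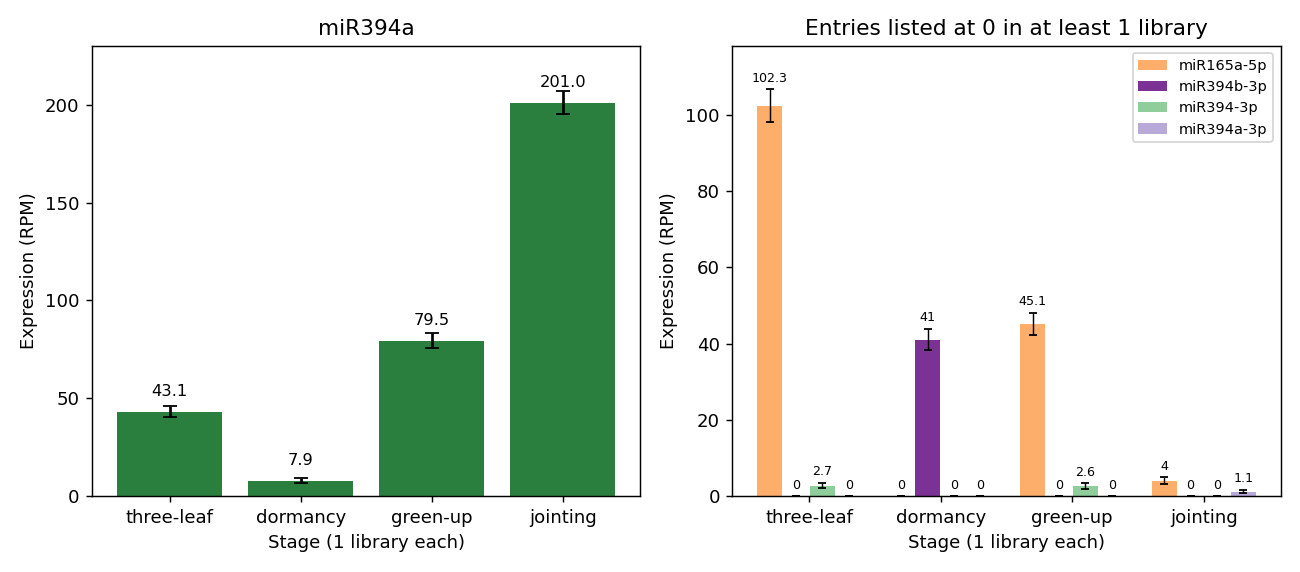
Expression in RPM on linear axes by stage, 1 library each, with 95% Wilson intervals, for miR394a (left) and the 4 entries listed at 0 in at least 1 library (right). miR394a was lowest at dormancy (7.9 RPM), the stage at which miR394b-3p (41 RPM) was the single one of the right-hand entries above 0.

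Pairs of stages were compared by the fold and level thresholds of the study's methods. An entry passed when its RPM differed by a log2 value over 1 and either library exceeded 5 RPM. No p-value was used. Of the 8 entries, 6 exceeded 5 RPM somewhere; miR394-3p and miR394a-3p did not and could pass nowhere. Counts of entries that passed are set beside the share of all tested miRNAs that passed in the same direction.

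From the three-leaf stage to dormancy, miR165a-5p and miR394a passed as lower and miR394b-3p as higher. Of the 252 miRNAs tested, 16.3% passed as lower and 10.3% as higher. miR394a changed by -2.45 on the log2 scale (exact 95% interval -2.70 to -2.21), the 26th lowest change of the 252. miR164a and miR165a-3p, at -0.18 and -0.19, lay close to the median of all tested miRNAs, -0.01. Apart from miR394a, the calls of this step rest on a value of 0.

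From dormancy to green-up, miR165a-5p and miR394a passed as higher and miR394b-3p as lower, each the reverse of its change in the step before. Both steps use the same dormancy library, so a reversal is not a second, independent observation. The calls of miR165a-5p and miR394b-3p again rest on a value of 0. Among the 250 tested miRNAs, 17.2% passed as higher and 28.8% as lower. The calls as higher made 37.4% of all calls, and 49.6% and 55.1% under the scalings. miR394a changed by 3.33 (3.10 to 3.57), with 22 larger changes among the 250. The change of miR164a was -0.73 (-0.75 to -0.71) against a median of -0.28.

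From green-up to jointing, miR394a passed as higher and miR164a, miR164b-3p, miR165a-3p and miR165a-5p as lower. Here 16.4% of 238 tested miRNAs passed as higher and 37.8% as lower, so a call as lower was common. Under the scalings the shares were 21.0% and 20.6% higher and 23.5% and 24.4% lower. miR394a changed by 1.34 (1.26 to 1.42) while the median of all tested miRNAs was -0.70. miR164a, at -1.19 (-1.22 to -1.16), and miR164b-3p, at -1.06 (-1.22 to -0.90), had 74 and 82 miRNAs with lower changes. Their calls depend on the scale. When libraries were scaled to the reads of the listed miRNAs, miR164a changed by -0.55 and miR164b-3p by -0.42, and neither passed. Scaling by the median ratio gave -0.61 and -0.48.

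**Figure D4:**
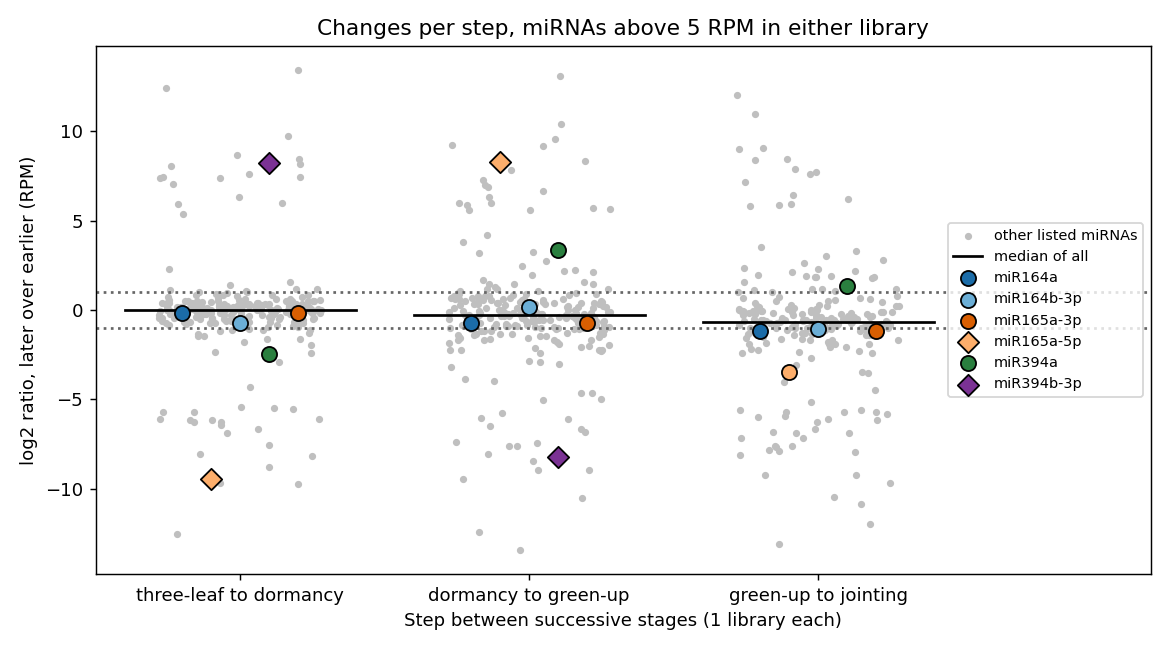
Log2 ratio of RPM, later over earlier stage, for every miRNA above 5 RPM in either library of a step (grey), with the entries described here in colour and the median of all as a black line. Diamonds are changes against a value of 0 set to 3 reads, and dotted lines mark the threshold of 1 in either direction. miR394a goes from -2.45 to 3.33 and 1.34, while miR164a stays near or below the median in each step.

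Between three-leaf and jointing crowns, miR394a passed as higher, at 2.22 (2.12 to 2.33), as did 16.9% of 260 tested miRNAs. miR164a, miR164b-3p, miR165a-3p and miR165a-5p passed as lower, as did 54.6% of all tested. Under either scaling 27.3% of all passed as higher and 36.2% as lower. miR164a changed by -2.10 (-2.13 to -2.07) against a median of -1.25, and still passed at -1.05 under either scaling, by a small margin. miR164b-3p, at -1.62, did not pass under them (-0.57 in each).

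From dormancy to jointing, miR394a passed as higher (4.67, interval 4.44 to 4.91), and miR164a, miR165a-3p and miR394b-3p as lower. The shares of the 250 tested miRNAs were 17.2% higher and 53.2% lower, against 26.8% and 28.0% higher and 32.8% lower under the scalings. miR164a changed by -1.92, which became -0.94 and -0.90 under the scalings and no longer passed. From the three-leaf stage to green-up, miR165a-5p alone passed, as lower, at -1.18 (-1.29 to -1.07), where 34.8% of 256 tested miRNAs passed as lower and 15.6% as higher. Under the scalings it no longer passed (-0.77 and -0.71), and miR394a, at 0.88 on the deposited scale, passed as higher (1.30 and 1.36). On those scales 25.4% and 27.0% of the 256 passed as higher and 22.3% and 21.5% as lower.

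The courses of miR164a and miR394a were compared with those of 179 other miRNAs above 0 in every library and above 5 RPM in at least 1. The measure was the root mean square difference of log2 RPM, each centred on its own mean over the 4 libraries. Closest to miR164a were miR4995 (0.07), miR9772 (0.09) and miR167e-3p (0.10), the last being by name the opposite arm of a family that acts on auxin response factors. miR167e-3p, for example, was listed at 62.7, 54.4, 32.3 and 16.8 RPM. For comparison, the difference between miR164a and miR164b-3p was 0.39. These 3 miRNAs were thus nearer to miR164a than miR164b-3p was.

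miR394a had no neighbour as close. The nearest was miR319b-3p (0.40), whose family acts on TCP factors of leaf growth, with 451.4, 114.5, 1049.7 and 4558.3 RPM. miR9653a-3p (0.63) had 17.9, 8.6, 27.3 and 98.3 RPM and miR319-5p (0.79) had 5.2, 3.7, 35.5 and 70.4 RPM. All of them had their lowest value at dormancy and their highest at jointing, which follows largely from picking them by their course. The likeness rests on 4 libraries and carries no test.

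**Figure D5:**
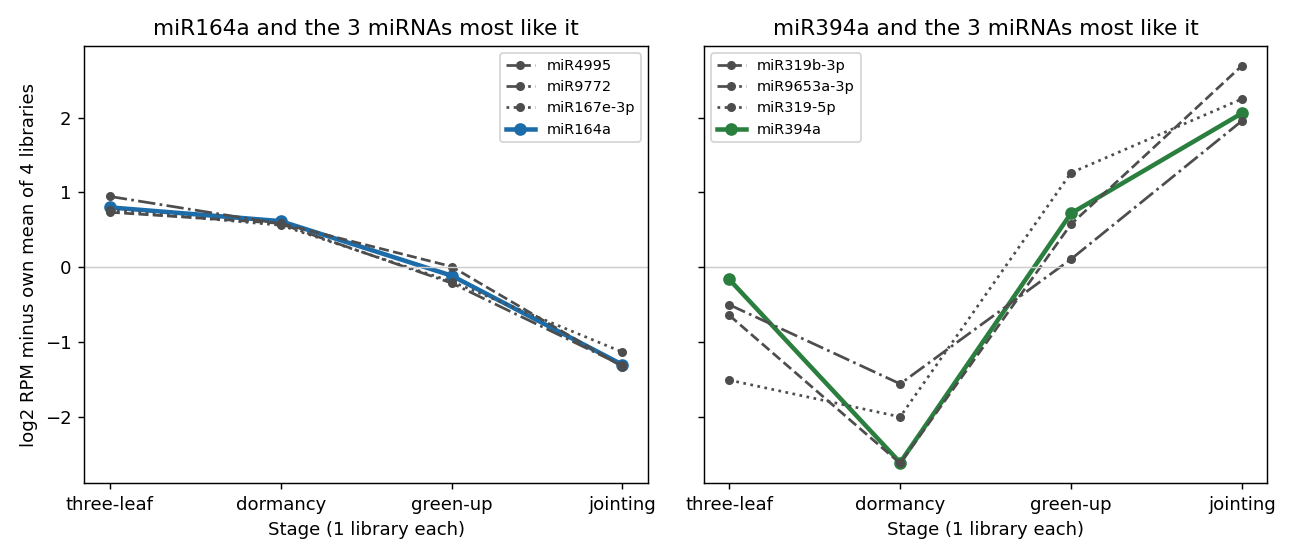
Log2 RPM minus its own mean over the 4 libraries (y axis) by stage for miR164a (left) and miR394a (right), each with the 3 miRNAs of smallest root mean square difference. The neighbours of miR164a lie within 0.10 of it by this measure, those of miR394a between 0.40 and 0.79.

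Other conserved miRNAs of the shoot apex and of organ outgrowth moved in either direction. The list held 22 entries of miR156, miR159, miR160, miR167, miR171, miR172, miR319, miR390, miR393, miR396 and miR444. From the three-leaf stage to dormancy, 20 of the 22 exceeded 5 RPM in either library and so were tested. Of these, 2 passed as higher and 4 as lower, where 10.3% and 16.3% of all tested miRNAs did. The largest changes were against a 0, with miR156d-3p going from 64.1 to 0 RPM and miR156h-3p from 0 to 39.4 RPM. They were followed by miR319b-3p (-1.98) and miR160a-5p (-1.63), which acts on auxin response factors. The median of the list was -0.18 against -0.01 for all tested miRNAs.

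From dormancy to green-up, 19 of the 22 were tested. Of these, 6 passed as higher and 5 as lower, where 17.2% and 28.8% of all tested did. The median of the list was 0.32 against -0.28. Under the scalings 7 passed as higher and 3 or 2 as lower. On those scales 22.8% and 26% of all tested passed as higher and 23.2% and 21.2% as lower. The highest changes were those of miR319-5p (3.26), miR319b-3p (3.20), miR160a-5p (2.75) and miR172a-5p (2.25), the last of a family that acts on APETALA2-like genes. The change of miR394a (3.33) was above each of them. From green-up to jointing, 20 of the 22 were tested. Of these, 5 passed as higher and 7 as lower, where 16.4% and 37.8% of all tested did, with a median of -0.36 against -0.70. Under the scalings 6 passed as higher and 4 or 5 as lower, and the median of the list was 0.28 and 0.22 against -0.06 and -0.12. Of all tested, 21.0% and 20.6% then passed as higher and 23.5% and 24.4% as lower. The largest changes were again against a 0, for miR160a-3p (0 to 27.1 RPM), miR156h-3p (21 to 0 RPM) and miR156d-3p (0 to 10.1 RPM), followed by miR172a-5p (2.17). Jointing was the highest stage for 6 of the 22 (27.3%) and for 16.4% of all listed miRNAs, and the three-leaf stage, as for miR164a, for 7 (31.8%) and 30.5%.

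As a part of all listed miRNAs, miR164a took 1.87% of the summed RPM in three-leaf, 1.73% in dormant, 1.32% in green-up and 0.903% in jointing crowns. On this scale too it was lower at each later stage. A large part of the sum is miR159a.1, at 21980.1, 21378.4, 45173 and 14340.2 RPM in the order of the stages. Shares without miR159a.1 were not computed, and the course of the miR164a share may depend on it. Scaled by the median ratio, miR164a changed by -0.15, -0.29 and -0.61 over the successive steps. Of the summed RPM, miR394a took 0.0302%, 0.00582%, 0.0741% and 0.292%. miR394a was thus nearest to miR164a in jointing crowns, at 201 against 622.7 RPM, values that are not divided by length (20 and 21 nt).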

How the data were processed

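Small RNA was sequenced from crowns at 4 stages, 1 library per stage from pooled RNA of 3 biological replicates. The authors kept reads of 18 to 30 nt, removed rRNA, tRNA, snRNA, snoRNA and repeat reads with SOAP, and named a read as a known miRNA when BLASTN found fewer than 2 mismatches to a plant entry of miRBase 22.1. The authors deposited RPM, that is tags per 1000000 reads (the file headers say TPM), rounded to 1 decimal for the 282 known miRNAs and 2 decimals for the 66 wheat_miRNAs. Versions of the tools are not given in the sources used here.

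Library totals were searched for which every 2-decimal value under 100 RPM was a whole number of reads. All 47, 49, 47 and 44 values were whole to within rounding (0.005 RPM is at most 0.11 reads). Reads of the entries described here are RPM times that total, known to about 1 read. A count test was not made, since each stage has 1 library. Log2 changes used deposited RPM with a 0 set to 3 reads. Intervals of log2 changes are exact binomial (Clopper-Pearson). Functions were tested on simulated data. Alternatives covered the value of a 0, a pseudocount, the level filter, the scaling and the fold threshold. The scaling of the list of other families was added after seeing the data.

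The members, the list of other families and the rule for likeness were chosen with earlier results of these data known. Named miRNAs were all entries of the name rule, the 3 nearest to miR164a and to miR394a, and up to 4 listed family members with the largest changes per step. Python 3.11.15, numpy 2.4.6, scipy 1.17.1 and matplotlib 3.10.9 were used. The RefSeq gene table matched 0 of the 8 entries, and qRT-PCR, target assays and leaf libraries were not analysed here.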

Additional observations from a re-analysis of the deposited data

How the results depend on the processing

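The counts of entries past the thresholds were 3, 1, 5, 3, 4 and 5 of 8 for three-leaf to dormancy, three-leaf to green-up, three-leaf to jointing, dormancy to green-up, dormancy to jointing and green-up to jointing. Of the 8 entries, 6, 5, 5, 6, 5 and 5 exceeded 5 RPM in either library of these pairs. Over all miRNAs the counts past the thresholds were 67, 129, 186, 115, 176 and 129. A pseudocount of 1 RPM, another value for a 0 and no level filter kept all 6 counts of the 8 entries within 1.5-fold. Leaving out miR165a-3p, which was chosen after seeing the data, did so too. A filter of more than 50 RPM gave 1 for three-leaf to dormancy, 1 for dormancy to green-up and 3 for green-up to jointing. Over all miRNAs it gave 24, 55 and 57 for these pairs. The number of miRNAs above 50 RPM is not given here, so these counts cannot be read as shares. A fold threshold of 4 gave 0 for three-leaf to green-up, 2 for dormancy to jointing and 1 for green-up to jointing. Over all miRNAs it gave 63, 117 and 71 for these pairs. Scaling to the listed miRNAs and scaling by the median ratio each gave 2 for dormancy to jointing and 2 for green-up to jointing. Over all miRNAs these scalings gave 149 and 152 for the former pair and 106 and 107 for the latter. They raise every log2 change by 0.98 and 1.02 in the former pair and by 0.64 and 0.58 in the latter. For three-leaf to green-up each scaling still gave 1, but this was miR394a, as higher, in place of miR165a-5p. Over all tested miRNAs, the share of calls that were higher in the last step went from 30.2% to 47.2% and 45.8%. Of 41 log2 changes, 2 turned sign under each scaling, those of miR394-3p from three-leaf to green-up (-0.05 to 0.36 and 0.42) and of miR164b-3p from dormancy to jointing (-0.91 to 0.06 and 0.10), and neither had passed. The causes were not tested. Leaving miR165a-3p out of the summed RPM moved the miR164 share at the three-leaf stage from 1.92% to 1.96%. No paired analysis was possible because each stage has 1 library, and none could be left out. Depth limits the entries under 3 RPM, which rest on about 23 to 59 reads.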

Other observations

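Among the wheat_miRNAs, which the study named outside miRBase, wheat_miR1306 was the listed sequence nearest to miR164a. It is identical to miR164a at 14 of 21 bases in register, where no other listed sequence reached more than 12. Three-leaf crowns had 7.52 RPM of it, green-up crowns 3.52 RPM and jointing crowns 2.26 RPM, with 0 in dormant crowns, far below miR164a in each library. It was chosen here by its sequence and not by its values.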
